A study of Mus musculus with 12 samples.

Results

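The Toll-like receptors and Cd14 are 10 genes of the mouse, Tlr1, Tlr2, Tlr3, Tlr4, Tlr6, Tlr7, Tlr8, Tlr9, Tlr13 and Cd14. They were chosen by symbol, and each was found by its Ensembl identifier among the 55357 gene identifiers of both count tables, 1 for liver and 1 for RAW264.7 cells. Of the 10 genes, 5 act at the cell surface (Tlr1, Tlr2, Tlr4, Tlr6 and Cd14) and 5 in endosomes (Tlr3, Tlr7, Tlr8, Tlr9 and Tlr13).

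Toll-like receptors are membrane proteins with which macrophages and other cells sense conserved molecules of microbes. Receptors at the surface bind lipids and lipopeptides of the microbial wall, whereas receptors in endosomes bind nucleic acids. On binding they recruit adaptors such as Myd88 and Ticam1, and kinase cascades then activate NF-kB and interferon regulatory factors. Cd14 has no signalling domain of its own and passes bacterial lipopolysaccharide and other ligands to the receptors. In the liver several of these genes are known from Kupffer cells, the resident macrophages, which face blood from the gut.

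The liver libraries came from wild-type male C57BL6/J mice aged 8 to 9 weeks, 3 libraries from vehicle-treated (control) animals and 3 from animals given esculetin, a coumarin found in plants. Esculetin was gavaged at 90 mg/kg/d for 7 days, and control animals received its vehicle, 2.5% Tween-80. The diet of all these mice drew 10% of its energy from fat on the first 4 days and 60% on the last 3. Per the study, every liver library pooled a pair of animals. RAW264.7 is a mouse macrophage line, and all 6 cell libraries came from cells exposed for 24 h to 25 µg/mL of oxidized low-density lipoprotein (oxLDL) carrying the dye DIL. The 3 control libraries received the solvent DMSO and the other 3 received 40 µg/mL esculetin. No source says that the cell replicates were separate cultures, so p-values measure only the spread between these libraries.

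Total counts ran from 14659876 to 20346460 in liver libraries and from 13752842 to 20001959 in cell libraries. Expression is given as CPM, which are counts relative to library size. Log2 CPM of liver control replicate 1 correlated less with the other 5 liver libraries (mean r 0.978) than those of any other liver library did (0.987 to 0.989), and liver results are therefore also given without it. In the cells the corresponding mean r lay between 0.960 and 0.968. The macrophage genes Adgre1, Cd68, Csf1r and Lyz2 were expressed in the RAW264.7 cells, while the macrophage genes Timd4, C1qa, C1qb and C1qc had 0 counts in all 6 cell libraries. Markers of T and NK cells and of cholangiocytes summed to at most 0.279 and 0.220 CPM in any cell library. Those of B cells, hepatocytes, stellate cells and endothelial cells reached at most 1.17, 2.38, 3.29 and 4.70 CPM. The neutrophil and monocyte list summed to 23.4 to 50.0 CPM, mostly Itgam. The plasmacytoid dendritic cell list summed to 61.6 to 116 CPM, mostly Bst2. Hepatocyte markers summed to at least 94557 CPM in every liver library, and all 12 macrophage markers were detected in both liver groups.

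The comparison of RAW264.7 cells asks which genes differ in oxLDL-loaded macrophages when esculetin is present. With esculetin, Cd14, Tlr13, Tlr4, Tlr7 and Tlr6 rose, Tlr2 and Tlr9 fell, and the test did not call Tlr1. Cd14 changed most, by 8.14-fold, followed by Tlr13, by 6.13-fold. Tlr3 and Tlr8 had too few counts for the test in the cells. Thus 7 of the 8 tested genes were called at an adjusted p under 0.05, against a background of 57.7% of all 13277 tested genes. In the upward direction 5 of 8 were called (background 28.7%) and in the downward direction 2 of 8 (background 29.0%). The control and esculetin libraries did not overlap in 7 of the 8 genes, against 64.1% of all tested genes. The median log2 fold change of the 8 genes was 1.08, beside -0.01 over all tested genes. A call was thus common among all genes in the cells, and the size of each change is given with it.

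**Figure D1:**
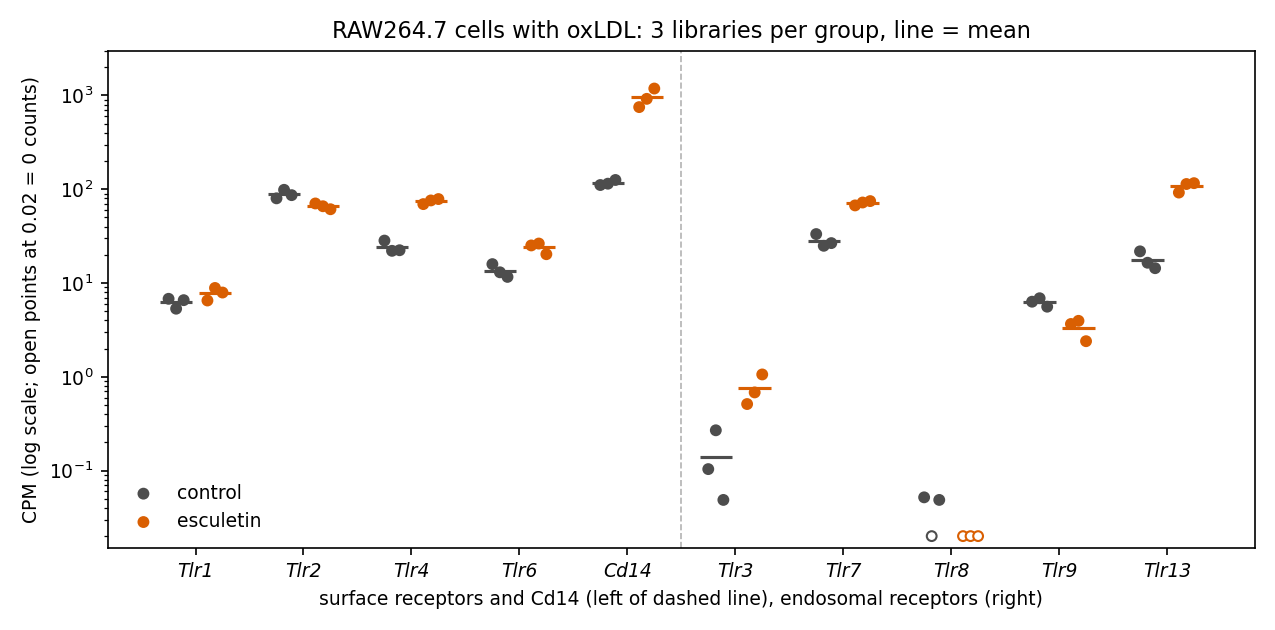
Level of each gene in the RAW264.7 libraries, as CPM on a log scale (vertical axis) by gene (horizontal axis), with 1 point per library and a line at the mean of 3. Esculetin points lie above all control points for Cd14, Tlr13, Tlr4, Tlr7, Tlr6 and Tlr3 and below them for Tlr2 and Tlr9. The Tlr1 points of the 2 groups overlap, and open points at the bottom mark libraries with 0 counts.

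Cd14 (ENSMUSG00000051439, GRCm39 chromosome 18, 36858120 to 36859851, minus strand), the ligand-binding partner of Tlr4, measured 111, 115 and 126 CPM in the control cells and 752, 921 and 1186 CPM in the esculetin cells. Every esculetin library thus lay far above every control library, and the esculetin libraries also differed widely among themselves. The means were 117 ± 7.60 and 953 ± 219 CPM (± SD, n = 3), and the log2 fold change was 3.02 (SE 0.15, 95% confidence interval 2.69 to 3.36, edgeR adjusted p 1.14e-07). Without esculetin replicate 3, the highest library, the log2 fold change was 2.83.

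Tlr4 (ENSMUSG00000039005, chromosome 4, 66745783 to 66849936, plus strand), the lipopolysaccharide receptor that Cd14 serves, measured 28.4, 22.1 and 22.4 CPM in control cells and 69.5, 76.0 and 78.6 CPM with esculetin. The 2 groups were well apart, and the mean rose from 24.3 ± 3.55 to 74.7 ± 4.73 CPM (log2 fold change 1.62, SE 0.12, edgeR adjusted p 9.22e-07). Tlr2 (ENSMUSG00000027995, chromosome 3, 83743576 to 83749074, minus strand) binds lipopeptides as a dimer with Tlr1 or Tlr6. It went the other way, from 80.0, 98.6 and 86.5 CPM to 70.5, 65.9 and 61.2 CPM. The groups did not overlap, though the lowest control and the highest esculetin library lay close. The fall of Tlr2 was small, with a log2 fold change of -0.42 (SE 0.10, 95% confidence interval -0.64 to -0.21, edgeR adjusted p 0.00355). It missed the study's criterion, applied here as an unadjusted limma-voom p under 0.05 and a fold over 1.5. That criterion was met by 38.0% of all tested genes and by 6 of these 8. The study reported fewer differing genes in these cells, so its own count was not reproduced.

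Neither partner of Tlr2 fell with it. Tlr6 (ENSMUSG00000051498, chromosome 5, 65108704 to 65203497, minus strand), which with Tlr2 senses diacylated lipopeptides, measured 15.9, 13.0 and 11.6 CPM in control cells and 25.2, 26.4 and 20.3 CPM with esculetin. That was a rise by 0.82 on the log2 scale (SE 0.15, edgeR adjusted p 0.000688) with no overlap. Tlr1 (ENSMUSG00000044827, chromosome 5, 65082022 to 65090941, minus strand), the partner for triacylated lipopeptides, measured 6.79, 5.32 and 6.57 CPM and 6.51, 8.86 and 7.92 CPM. Its groups overlapped. The log2 fold change of Tlr1 was 0.32 with a 95% confidence interval of -0.08 to 0.72 (edgeR adjusted p 0.152). That interval holds no change as well as a rise, though not one as large as the 0.82 of Tlr6.

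Tlr1 and Tlr6 are neighbours, 17762 bases apart on the same strand, and near-identical in places. Of the 75-base windows of the longest Tlr1 transcript, 11.4% also occurred in Tlr6, and 7.80% of the Tlr6 windows occurred in Tlr1, while no other pair of the 10 genes shared a window. Reads from the shared stretch could be split between them or dropped, depending on a counting setting that was not given in the sources used here. The span of Tlr6 also overlaps that of Fam114a1, which lies on the opposite strand. Whether their exons overlap was not checked. The strandedness of the libraries was not given, so any reads from shared exons cannot be told apart. Fam114a1 measured 19.0 ± 1.88 CPM in control cells and 16.2 ± 5.34 CPM with esculetin (edgeR adjusted p 0.338). Its groups overlapped, and its part in the Tlr6 counts was not tested.

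Of the endosomal receptors 2 rose, 1 fell and 2 could not be tested. Tlr13 (ENSMUSG00000033777, chromosome X, 105186810 to 105204533, plus strand), a receptor for bacterial ribosomal RNA, measured 21.8, 16.5 and 14.4 CPM in control cells and 92.2, 114 and 116 CPM with esculetin. The lowest esculetin library lay far above the highest control library. The log2 fold change of Tlr13 was 2.62 (SE 0.15, 95% confidence interval 2.28 to 2.95, edgeR adjusted p 2.26e-07). Tlr7 (ENSMUSG00000044583, chromosome X, 166086758 to 166113605, minus strand), a receptor for RNA rich in guanosine and uridine, measured 33.3, 25.0 and 26.7 CPM and 67.3, 72.2 and 74.8 CPM. Its groups did not overlap, and it rose by 1.34 on the log2 scale (SE 0.12, edgeR adjusted p 3.70e-06).

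Tlr9 (ENSMUSG00000045322, chromosome 9, 106099797 to 106104082, plus strand), the receptor for DNA with unmethylated CpG, fell from 6.32, 6.88 and 5.59 CPM to 3.66, 3.95 and 2.40 CPM. The 2 groups did not overlap, but the counts behind them were modest, 115 to 128 in control and 43 to 58 in esculetin libraries. The log2 fold change of Tlr9 was -0.92 (SE 0.22, 95% confidence interval -1.41 to -0.43, edgeR adjusted p 0.00442). Tlr3 (ENSMUSG00000031639, chromosome 8, 45848702 to 45864117, minus strand), which senses viral RNA duplexes, had 2, 5 and 1 counts in control and 7, 10 and 19 counts in esculetin cells. The groups did not overlap, yet the counts were below the filter, and Tlr3 was not tested in the cells. With no filter on low counts its log2 fold change was 2.36 (edgeR adjusted p 0.00817). The p-values of that fit are not on the scale of the filtered fit (for Cd14, edgeR adjusted p 2.55e-158 against 1.14e-07). The value of Tlr3 is therefore given as a description. Tlr8 (ENSMUSG00000040522, chromosome X, 166024184 to 166047325, minus strand), a relative of Tlr7 and its neighbour at a distance of 39432 bases on the same strand, had 1, 0 and 1 counts in control cells and 0 counts in the esculetin cells. It was at or under the floor of 3 counts in every cell library, and no fold is given.

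The promoters of Tlr13, Tlr2 and Tlr9 are shown as examples of a gene that rose and of the genes that fell. They were taken from the RefSeq promoter table (build GRCm38.p6), placed on GRCm39 by exact match and ended 30 bases into the more upstream of the RefSeq and GENCODE transcripts. Capitals mark matches, on either strand, to TTNNGNAA (C/EBP), GAGGAA (the PU.1 core), GGGNNTTNCC (NF-kB) or TGANTCA (AP-1).
Tlr13, chrX:105186631-105186840, plus strand: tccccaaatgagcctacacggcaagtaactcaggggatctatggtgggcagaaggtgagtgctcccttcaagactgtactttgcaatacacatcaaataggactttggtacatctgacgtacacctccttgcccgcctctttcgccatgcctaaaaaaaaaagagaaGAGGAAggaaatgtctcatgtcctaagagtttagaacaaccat
Tlr2, chr3:83749045-83749165, minus strand: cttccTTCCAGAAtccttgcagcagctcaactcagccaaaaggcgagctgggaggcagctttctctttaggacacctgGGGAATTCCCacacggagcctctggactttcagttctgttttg
Tlr9, chr9:106099547-106099826, plus strand: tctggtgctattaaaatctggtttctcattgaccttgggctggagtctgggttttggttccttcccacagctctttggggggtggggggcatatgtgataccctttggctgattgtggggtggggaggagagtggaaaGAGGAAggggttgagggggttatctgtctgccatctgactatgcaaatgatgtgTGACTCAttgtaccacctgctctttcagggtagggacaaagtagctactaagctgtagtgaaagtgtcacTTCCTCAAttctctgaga

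In the Tlr13 promoter the capitals are a PU.1 core 83 bases upstream of the RefSeq start, and a C/EBP match lay at the start itself, past the stretch shown. The GENCODE start of Tlr13 lies 70 bases upstream of the RefSeq start, so that C/EBP match was inside the GENCODE transcript. Tlr2 held a C/EBP match 245 bases and an NF-kB match 172 bases upstream of the RefSeq start. Its GENCODE start lies 159 bases upstream of the RefSeq start, so both matches were nearer to the GENCODE start and still upstream of it. Tlr9 held a PU.1 core 112 bases and an AP-1 match 58 bases upstream, and a PU.1 core lay within a C/EBP match just inside the transcript. Of the 10 genes, 7 were in the promoter table (Tlr1, Tlr2, Tlr3, Tlr6, Tlr8, Tlr9 and Tlr13), each searched over 300 bases. C/EBP matched in 5 of the 7 (40.7% of all 32851 promoters), the PU.1 core in 4 of 7 (28.3%), NF-kB in 2 of 7 (4.79%) and AP-1 in 1 of 7 (7.81%). The interferon response letters GAAANNGAAA matched in 0 of 7 (3.44%). These matches are descriptions of letters in a window. C/EBP matches were held by Tlr13, which rose, by Tlr2 and Tlr9, which fell, and by Tlr3 and Tlr8, which were not tested in the cells. Tlr6, which also rose, held 0 matches to any of the motifs. Cd14, Tlr4 and Tlr7, which rose as well, had no promoter to search, so matches cannot be set against the direction of change.

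Levels of different genes were compared per kilobase of exon, with all annotated exons of a gene counted. For Tlr4 these came to 7009 bases, though its longest transcript has 4115. Its level and its place in the order therefore depend on the length used. In control cells the order by mean CPM per kilobase was Cd14 at 67.6, Tlr2 at 16.1, Tlr7 at 5.34, Tlr13 at 3.70, Tlr4 at 3.46, Tlr6 at 2.78, Tlr1 at 1.84 and Tlr9 at 1.80, with Tlr3 and Tlr8 under 0.03. The library ranges of Tlr13 and Tlr4, of Tlr4 and Tlr6, of Tlr1 and Tlr9, and of Tlr3 and Tlr8 overlapped. Within each control library Tlr4 still lay above Tlr6 (4.05 and 3.27, 3.15 and 2.68, 3.19 and 2.39). The other overlapping pairs changed order between libraries. With esculetin Cd14 stood at 550, Tlr13 came next at 22.7, and Tlr7 at 13.5, Tlr2 at 12.0 and Tlr4 at 10.7 followed with ranges that overlapped from each to the next. Tlr6 stood at 4.93, Tlr1 at 2.30, Tlr9 at 0.959 and Tlr3 at 0.140, each apart from the next.

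The make-up of the receptor RNA shifted accordingly. Summed over the 9 receptors without Cd14, CPM per kilobase lay between 33.0 and 36.6 in control libraries and between 63.1 and 69.8 in esculetin libraries. Surface receptors held 65.2%, 71.3% and 70.6% of that sum in control cells and 47.3%, 44.2% and 42.2% with esculetin. By these lengths endosomal receptors held the larger part in all 3 esculetin libraries and in none of the controls. A Tlr4 length of 4115 bases would raise the surface share. Which class held the larger part with esculetin thus depends on the length used. Tlr2 alone went from 46.0% ± 5.56 to 17.9% ± 2.12 of the sum, and Tlr13 from 10.5% ± 1.79 to 33.7% ± 2.59 (SD, n = 3). The summed level of the surface receptors was 23.3 to 25.3 in control and 28.9 to 30.9 in esculetin libraries, and that of the endosomal receptors 9.70 to 12.7 and 33.3 to 39.5. The shift in shares thus went with a larger endosomal sum, not with a smaller surface sum.

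**Figure D2:**
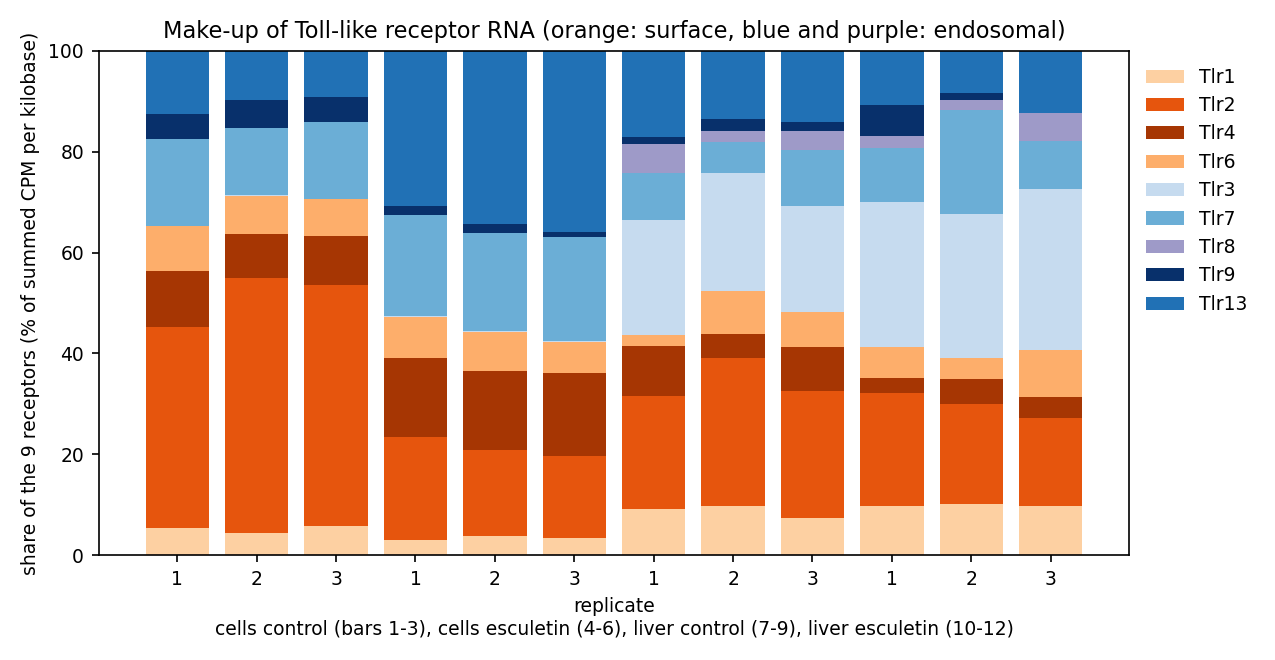
Share of each of the 9 receptors in their summed CPM per kilobase of exon (vertical axis, percent), with 1 bar per library (horizontal axis, replicate number), surface receptors in orange and endosomal receptors in blue and purple. Surface receptors take 65.2% to 71.3% of the bar in control cells and 42.2% to 47.3% with esculetin, and Tlr3 is visible only in liver.

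The other genes of the pathway, 60 in all, were taken from lists compiled by hand. In the cells 37 of the 52 tested were called (background 57.7%), 30 higher and 7 lower, with a median log2 fold change of 0.37. Tlr5, Tlr11 and Tlr12, the remaining mouse Toll-like receptors, had 0 counts in all cell libraries. Of the surface partners, Ly96, which completes the Tlr4 receptor, rose from 2.53 ± 0.371 to 5.70 ± 0.778 CPM (log2 fold change 1.16, SE 0.22, edgeR adjusted p 0.000795), as Tlr4 and Cd14 did. Cd36, a scavenger receptor that assists dimers of Tlr2 and Tlr6, rose by 1.23 on the log2 scale (edgeR adjusted p 0.000246). Cd180, a relative of Tlr4, and Ly86, the protein it pairs with, moved apart, by 1.46 and -1.86 (edgeR adjusted p 1.95e-05 and 2.21e-06).

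Of the 8 chaperones and trafficking genes of the endosomal receptors, 4 rose and 2 fell, where 28.7% of all tested genes rose and 29.0% fell. Unc93b1, which carries the nucleic acid receptors to endosomes, rose by 0.53 on the log2 scale from 233 to 336 CPM (edgeR adjusted p 0.000705). Slc15a3, an endosomal peptide and histidine transporter, rose by 1.98, and its relative Slc15a4 fell by 0.71. Tasl, the adaptor that works with Slc15a4, rose by 0.85, and Ap3b1, of the complex that sorts cargo to lysosomes, rose by 0.70. Cnpy3, a chaperone for folding of the receptors, fell by 0.31. Of the 8 tested endolysosomal proteases and nucleases, the proteases Ctsb, Ctsl and Ctsk and the exonuclease Pld3 rose, by 0.87, 0.69, 1.87 and 0.76, while the proteases Ctss and Lgmn fell by 0.48 and 0.41. Here Cnpy3, Tasl, Ctsk and Lgmn are named to complete the counts, after their values were seen.

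Of the 4 tested TIR adaptors, which dock on the receptors, 2 were called, both higher (background 28.7%). Ticam2 rose by 0.92 and Ticam1 by 0.34 on the log2 scale (edgeR adjusted p 4.49e-05 and 0.0190). Both serve the branch that leads to interferon genes. Myd88, the adaptor of most receptors, had a log2 fold change of -0.29 and Tirap, which bridges it to Tlr2 and Tlr4, of -0.12, and neither was called (edgeR adjusted p 0.0861 and 0.281). Of 15 kinases and ubiquitin ligases, 9 rose and 1 fell, so that 10 of 15 were called against a background of 57.7%. Ikbke, an interferon-inducing kinase, rose by 1.28, Pik3ap1 by 0.97 and Chuk, a kinase of the NF-kB pathway, by 0.74, while the ligase Traf3 fell by 0.57. Of the 5 tested transcription factors 4 were called, all higher (background 28.7%), Irf7 by 1.02, Rela by 0.62, Irf5 by 0.46 and Irf3 by 0.35. Nfkb1, named to complete the count, was not called (edgeR adjusted p 0.254).

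Of the 8 tested inhibitors of the pathway 4 rose and 1 fell, and these 5 of 8 calls lie near the background of 57.7%. Il1rl1, a receptor of the interleukin family that restrains Toll-like receptor signalling, went from 5.96 ± 0.369 to 27.8 ± 9.42 CPM (log2 fold change 2.23, SE 0.22, edgeR adjusted p 8.17e-06). Nfkbia, which holds NF-kB in the cytoplasm and is itself a target of it, rose from 158 ± 5.64 to 365 ± 32.0 CPM (log2 fold change 1.21, SE 0.09, edgeR adjusted p 1.14e-06). Tnfaip3 rose by 0.35 and Cyld, a deubiquitinase, fell by 0.55. Irak3, named to complete the count, rose by 0.70. Markers of macrophages moved in the same samples. Their summed level over 12 genes was 1958 to 2179 CPM in control and 4686 to 7221 CPM in esculetin cells, most of the difference being Lyz2, which went from 638 to 3496 CPM. Of the 5 tested markers Lyz2, Csf1r and Adgre1 rose by 2.45, 0.96 and 0.31 on the log2 scale, Cd5l fell by 1.98 and Cd68 was not called (edgeR adjusted p 0.121). Their part in the receptor results was not tested.

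**Figure D3:**
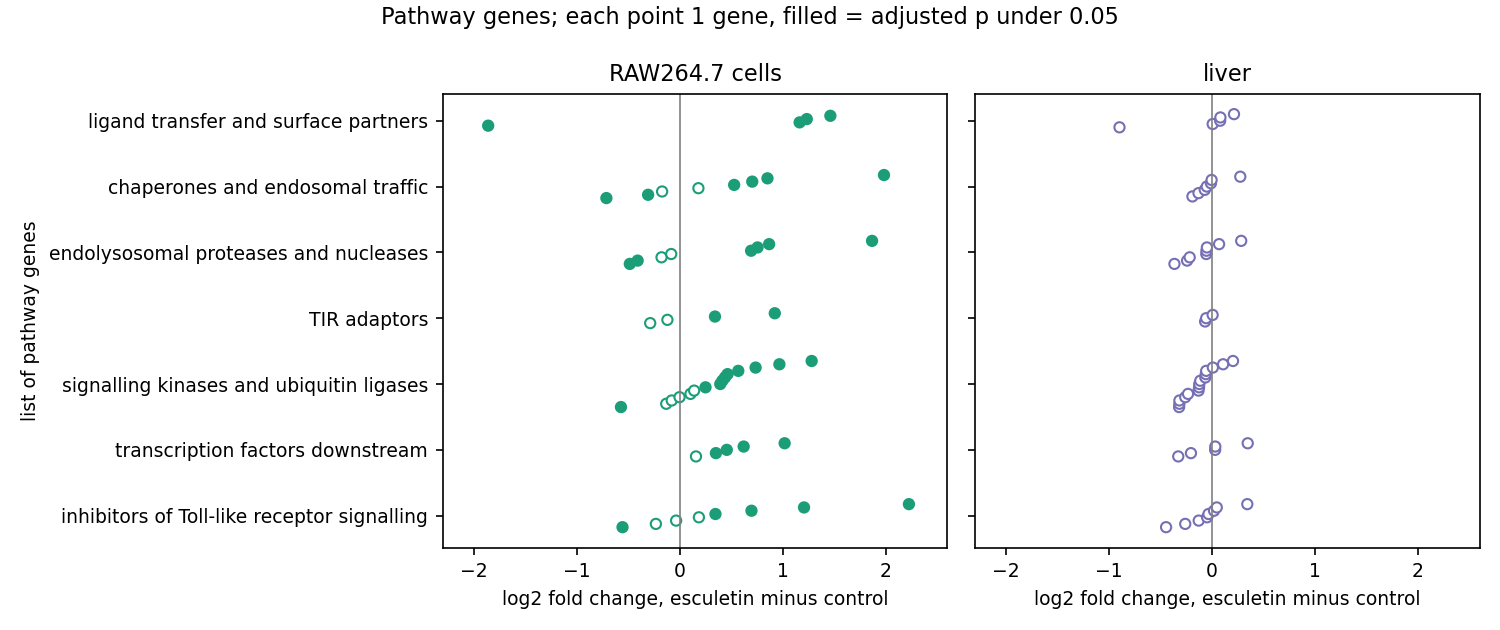
Log2 fold change with esculetin (horizontal axis) of tested pathway genes by list (vertical axis), in RAW264.7 cells on the left and in liver on the right. Filled points were called at an adjusted p under 0.05, 37 of 52 tested genes in the cells and 0 of 53 in the liver. The 53 include Tlr5 and Tlr12, which are not drawn.

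The liver comparison asks the same of a tissue of many cell types. Bulk samples do not show which cells carry a receptor, and in them fewer cells of a type and less RNA per cell cannot be told apart. No gene of the 10 was called in the liver. Of the 6 that passed the filter (Tlr2, Tlr3, Tlr6, Tlr7, Tlr13 and Cd14), 0 had an edgeR adjusted p under 0.05, where 0.0859% of all 12813 tested genes did, and DESeq2 and limma-voom with adjusted p-values also called 0. At an unadjusted p under 0.05 there were 2, Tlr2 and Tlr13, both lower (8.37% of all tested genes). The same 2 met the study's criterion, as 3.89% of all tested genes did. These 2 were also the tested genes whose groups did not overlap (14.5% of all tested genes).

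Tlr2 measured 2.89, 2.86 and 2.86 CPM in control livers and 2.23, 1.43 and 1.49 CPM with esculetin. The controls were nearly equal and all above the esculetin livers, on 47 to 58 and 22 to 41 counts. The log2 fold change of Tlr2 was -0.73 (SE 0.28, 95% confidence interval -1.34 to -0.11, unadjusted p 0.0240, edgeR adjusted p 0.517), and it was -0.72 without control replicate 1. Tlr13 measured 1.90, 1.13 and 1.40 CPM in controls and 0.926, 0.519 and 0.906 CPM with esculetin. Its log2 fold change was -0.89 (SE 0.39, unadjusted p 0.0408, edgeR adjusted p 0.568) and -0.67 without control replicate 1.

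Cd14 measured 2.83, 2.86 and 3.55 CPM in control livers and 3.81, 4.61 and 3.30 CPM with esculetin, which overlapped. Its log2 fold change of 0.34 had a 95% confidence interval of -0.18 to 0.87 (edgeR adjusted p 0.727), which lies wholly below the interval of the cells. Tlr3, at 2.48 ± 0.357 and 2.48 ± 0.411 CPM, had a log2 fold change of 0.01 (95% confidence interval -0.58 to 0.59). Tlr7 (0.13, interval -0.78 to 1.04) and Tlr6 (-0.17, interval -1.36 to 1.03) had wide intervals on 4 to 22 counts per library. Changes within these intervals were not detectable at this depth. Without control replicate 1 the log2 fold changes were 0.29 for Cd14, 0.13 for Tlr3, 0.27 for Tlr7 and -0.50 for Tlr6, and 0 of the 10 genes were called.

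Tlr4, Tlr1, Tlr8 and Tlr9 were below the filter in the liver. Tlr4 had 27, 12 and 22 counts in control and 7 counts in each esculetin liver. In CPM the groups did not overlap, with 1.66, 0.592 and 1.28 against 0.381, 0.455 and 0.453. With no filter on low counts the log2 fold change of Tlr4 in the liver was -1.44 (edgeR adjusted p 0.225), a value of the opposite sign to that in the cells and not called. It was -1.76 to -1.09 in the 5 fits that left out 1 library and kept the gene, and not called in any. Tlr1 had 9 to 12 and 7 to 11 counts, Tlr8 4 to 11 and 2 to 7, and Tlr9 2 to 3 and 0 to 7, all with overlap. Per kilobase the order in control livers began with Cd14 at 1.78, Tlr2 at 0.522 and Tlr3 at 0.464, and the ranges of Tlr2 and Tlr3 overlapped. With esculetin Cd14, at 2.26, was again apart from the next gene, Tlr3, and below it every gene overlapped its neighbour. Tlr3 was thus among the leading of these 10 genes in liver and nearly without counts in the cells. Tlr5 and Tlr12, at 0 counts in the cells, measured 7.98 ± 1.69 and 20.7 ± 4.04 CPM in control livers (7.57 ± 1.38 and 16.8 ± 2.85 with esculetin, edgeR adjusted p 0.941 and 0.668).

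**Figure D4:**
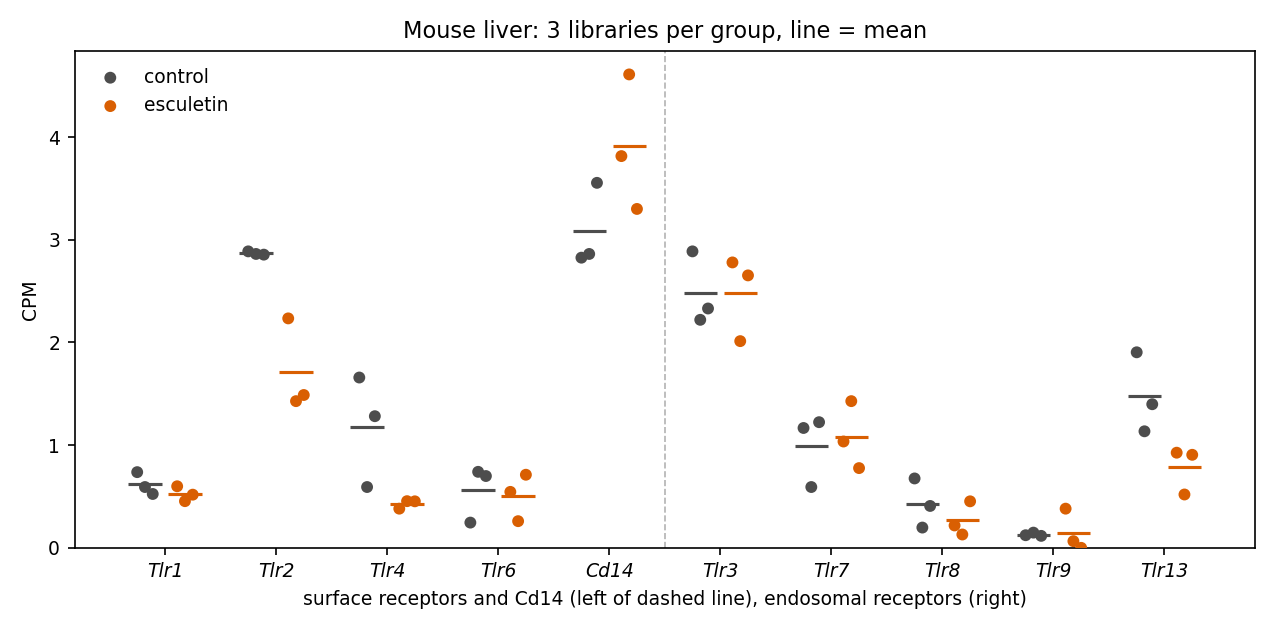
Level of each gene in the liver libraries, in CPM on a linear scale (vertical axis) by gene (horizontal axis), with 1 point per library and a line at the mean of 3. All points lie under 5 CPM, and the groups are apart only for Tlr2, Tlr4 and Tlr13.

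Kupffer cell markers were measured beside these genes. All 12 markers passed the filter, 0 were called by edgeR, 9 of 12 had a log2 fold change below 0, and 3 had an unadjusted p under 0.05 (8.37% of all tested genes), all lower (Marco by 0.77, Cd68 by 0.50 and Csf1r by 0.28 on the log2 scale). The groups did not overlap for 4 of the 12, Adgre1, Cd68, Csf1r and Marco (14.5% of all tested genes). The summed level of the 12 was 599 to 777 CPM in control and 608 to 674 CPM in esculetin livers, which overlapped. Clec4f and Vsig4, which mark Kupffer cells most closely, had log2 fold changes of -0.22 and 0.02. The part of these cells in the values of Tlr2 and Tlr13 was not tested. Markers of B cells summed to 3.69 to 4.25 CPM in control and 1.25 to 2.85 CPM in esculetin livers. Those of neutrophils and monocytes summed to 2.95 to 3.65 and 1.74 to 2.59 CPM, and those of stellate cells to 153 to 157 and 127 to 143 CPM. These 3 sums were lower with esculetin without overlap. The sums of endothelial cells, cholangiocytes, hepatocytes, T and NK cells and plasmacytoid dendritic cells overlapped. In the 3 lists 0 of the tested genes were called, and Dcn (93.6 and 81.8 CPM) made up most of the stellate sum. Col1a1 (9.68 and 10.9 CPM) and S100a8 (0.214 and 0.264 CPM) had higher means with esculetin, the other detected genes lower ones. The part of these lists was not tested either. Of the 53 tested pathway genes 0 were called by edgeR (background 0.0859%) and 3 had an unadjusted p under 0.05 (background 8.37%). These were Cd180, Pld4 and Irf7, all lower, Cd180 by 0.90, Pld4 by 0.36 and Irf7 by 0.33 on the log2 scale (edgeR adjusted p 0.527, 0.596 and 0.520). Their median log2 fold change was -0.06, beside -0.02 over all tested genes. Irf7 and Cd180 had risen in the cells.

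**Figure D5:**
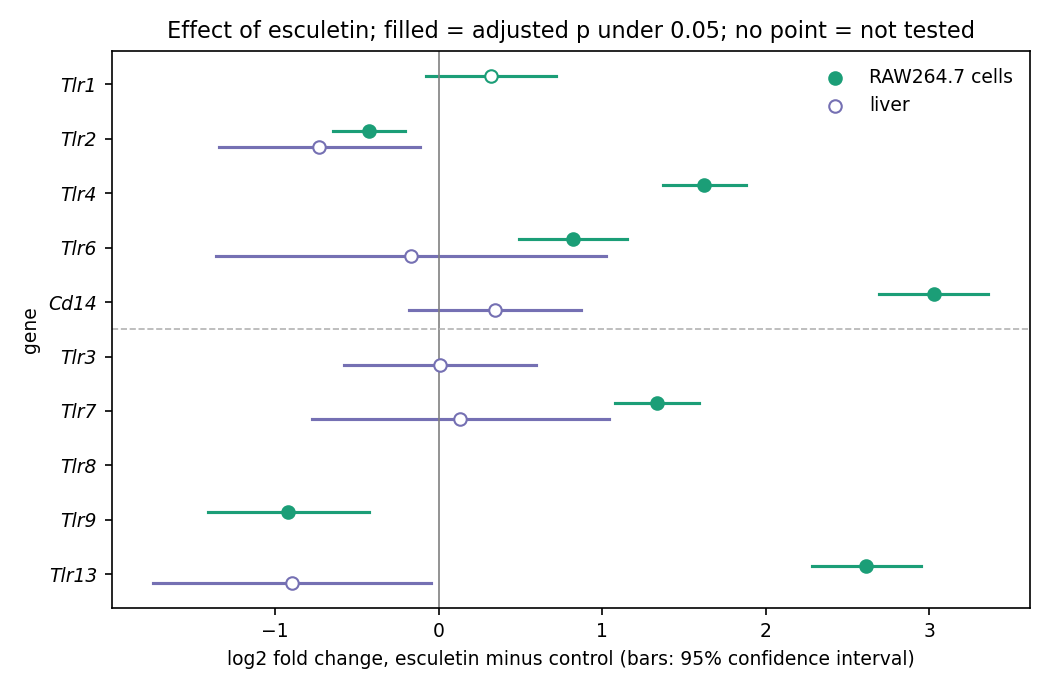
Log2 fold change with esculetin (horizontal axis) of each gene (vertical axis) with its 95% confidence interval, in RAW264.7 cells and in liver. The cell intervals lie above 0 for Cd14, Tlr13, Tlr4, Tlr7 and Tlr6, and the liver intervals of Cd14, Tlr3, Tlr6 and Tlr7 include 0. The Tlr2 intervals lie below 0 in both, and so does the liver interval of Tlr13. The intervals are not adjusted for the number of genes tested, and no gene was called in the liver.

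Whether esculetin acted differently on a gene in cells and in liver was tested as the difference between the effects, in a model of all 12 libraries. The cells and livers differed in dose, route, time and lipid exposure, so the difference is between experiments and not between cell types alone. The filter was applied to the 12 libraries together, and 4 of the 9 genes it kept had been below the filter of a single experiment, Tlr3 in the cells and Tlr1, Tlr4 and Tlr9 in the liver. Of the 9 genes 5 differed at an adjusted p under 0.05, all with the more positive effect in the cells, against 27.1% of all 15709 tested genes (13.4% in that direction). The log2 differences were 3.46 for Tlr13 (95% confidence interval 2.69 to 4.22, edgeR adjusted p 6.66e-06), 3.00 for Tlr4 (2.13 to 3.87, 7.66e-05) and 2.64 for Cd14 (2.09 to 3.18, 4.71e-06). Tlr3 differed by 2.34 (edgeR adjusted p 0.0104), on 1 to 19 counts per cell library. Since 2 of the 5 called genes, Tlr3 and Tlr4, were not tested in both experiments on their own, the count of 5 is given as a description. Tlr7 differed by 1.15 (edgeR adjusted p 0.0240), and that call was lost without liver control replicate 1 (0.0544) or 3 (0.0624), liver esculetin replicate 3 (0.0595) or cell control replicate 2 (0.0522).

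For the surface dimer of Tlr2 no difference was shown. Tlr2 was lower with esculetin in both experiments, but in the liver it was not called (edgeR adjusted p 0.517). Its effects differed by 0.26 with a 95% confidence interval of -0.25 to 0.76 (edgeR adjusted p 0.482). Tlr6 differed by 0.96 (interval -0.09 to 2.01, edgeR adjusted p 0.169) and Tlr1 by 0.50 (interval -0.37 to 1.37, edgeR adjusted p 0.411). Without liver control replicate 1 the Tlr6 difference was 1.35 (edgeR adjusted p 0.0391). Tlr9 differed by -1.25, with an interval of -3.22 to 0.72 that its 0 to 7 liver counts leave wide.

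The genes whose log2 CPM ran most like that of a receptor over the 12 libraries were named by Pearson's r. For Cd14 they were Vwa5a (r = 0.998), Slfn10 (0.997) and Atp1b3 (0.997), and for Tlr13 Lilrb4b (0.991), Pvr (0.991) and Btaf1 (0.989). For Tlr2 they were Arhgef6 (0.998), Tanc1 (0.997) and Plcg2 (0.997), and for Tlr4 Ints13 (0.993), Ccdc116 (0.993) and Strn (0.992). The 12 points share experiment and treatment, and such values were common, with 804 of 15708 genes over 0.95 for Cd14 and 2287 for Tlr2. For Tlr9 only 214 genes passed 0.95, led by Zfp217 (0.985), whereas for Tlr1 2411 did.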

How the data were processed

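RNA was sequenced from 6 liver and 6 RAW264.7 libraries. The authors mapped paired reads to GRCm39 with HISAT2 2.2.1 and deposited raw counts per gene locus, made with featureCounts, in 1 table per experiment. The submitters' processing notes also name mm10. Strandedness, the handling of multimapped reads and the annotation release were not given in the sources used here. No table column was left unmapped. Identifiers were matched to GENCODE vM39 (GRCm39), and exon lengths, positions and overlaps came from it.

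From the counts, CPM with trimmed-mean (TMM) factors was computed per table. After filterByExpr, each table was fitted on its own in edgeR 4.0.16 (R 4.3.3) by quasi-likelihood, with treatment as covariate. Two-sided p-values received Benjamini-Hochberg adjustment across every gene tested in that fit, and 0.05 was the threshold. The difference between experiments was a contrast in a 4-group fit of all 12 libraries. CPM per kilobase was CPM over the length of all annotated exons of the gene. Alternatives used limma 3.58.1 and DESeq2 1.42.0. They included the study's criterion, read as an unadjusted p under 0.05 with a fold over 1.5 and applied with limma-voom. The fits were tested on simulated data. An exact permutation test of 3 against 3 libraries cannot fall below 0.1 and was not used. Tables and plots used Python 3.11.15, pandas 2.3.3 and matplotlib 3.10.9.

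The genes and lists were chosen with earlier results of these data known. Named genes were the 10 genes, up to 4 pathway genes of each list with the smallest p in cells, the 3 genes most alike to a receptor, and markers. In liver the named pathway genes were those with an unadjusted p under 0.05, besides Tlr5 and Tlr12.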

Additional observations from a re-analysis of the deposited data

Results flagged for a closer look

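The effect of esculetin differed between the cells and the liver by the test of the difference itself (edgeR, 9 of the 10 genes tested) for Tlr13, by 3.46 on the log2 scale, for Tlr4, by 3.00, for Cd14, by 2.64, for Tlr3, by 2.34, and for Tlr7, by 1.15. In all 5 the effect was more positive in the cells. Tlr3 was below the filter in the cell table (1 to 5 counts in control cells) and Tlr4 in the liver table (7 counts in each esculetin liver), and both were kept by the filter over all 12 libraries. Dose, route, time and lipid exposure differed between the experiments and cannot be told apart from the cell or tissue. Groups of 3 libraries were too small for a test of single outlying libraries.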

How the results depend on the processing

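In the cells 7 genes were called, and 6 under the study's criterion (Tlr2 fell out by its fold), 8 with no filter on low counts (Tlr3 added) and 7 to 8 when a replicate was left out. Tlr3 was the gene added without control replicate 1, 2 or 3 or esculetin replicate 1. It passed the filter of those fits through its esculetin counts (7, 10 and 19, against 2, 5 and 1 in control cells). The added call is therefore a description and no support for a change of Tlr3. In the liver 0 were called under every alternative except the study's criterion, which called 2 (Tlr2 and Tlr13). Over the leave-one-out fits the difference between experiments was called for 4 to 5 genes. Pathway genes called under the study's criterion were 22 in the cells, against 37, and 1 in the liver, against 0, and over the leave-one-out fits 32 to 39 and 0. Values that changed sign were all uncalled. In the liver, Tlr3 went from 0.01 to -0.064 when scaled by library size only and to -0.010 with a minimum of 1 CPM. Over the leave-one-out fits it ran from -0.10 to 0.13, Tlr6 from -0.50 to 0.13 and Tlr7 from -0.15 to 0.30, the last 2 changing sign without control replicate 2 or esculetin replicate 2. The Tlr9 difference between experiments ran from -1.75 to 0.999, the only positive value being that without liver esculetin replicate 1. The cause was not tested. The labels give both groups the same replicate numbers, but samples of a number did not all deviate together (r 0.140, -0.00529 and 0.103 in liver, 0.165, -0.0298 and 0.0796 in cells), so the numbers were not taken as pairs. With the number as a replicate block 7 genes were called in the cells, 0 in the liver and 5 for the difference, and Tlr3 in the liver went to -0.0027. Over all liver genes the count of calls moved from 11 to 98 (DESeq2), 123 (block), 339 (no filter), 499 (the study's criterion), 0 (library size only) and 0 to 31 over the leave-one-out fits, being 0 without control replicate 2, esculetin replicate 1 or esculetin replicate 3. The depth left the 10 genes at 0 to 71 counts in any liver library.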
